A study of Mus musculus with 2 samples.

Results

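Natural killer (NK) cells and type 1 innate lymphoid cells (ILC1) were taken from a single-cell RNA sequencing study of mouse liver as the 192 cells, of 16716 kept barcodes, whose transcripts met one rule. A barcode was kept with at least 300 genes and at most 25% mitochondrial counts. It was selected when Ncr1, Klrb1c and Klre1 together had at least 3 counts, Cd3e, Cd3d and Cd3g together fewer than 2, and Cd79a and Ms4a1 together fewer than 2. Markers of Kupffer cells (Clec4f, Vsig4, Cd5l and C6) had to stay under 15 and markers of endothelial cells (Ptprb, Kdr, Stab2 and Gpr182) under 20 per 10000 counts. The selected cells numbered 126 of 7917 in the control-labelled library and 66 of 8799 in the knockout-labelled library.

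Both libraries came from livers of male mice after partial ligation of the inferior vena cava (pIVCL), a model of impeded hepatic outflow. The control genotype is Ctgffl/fl, floxed alleles of Ctgf (current symbol Ccn2) with no Cre. The knockout genotype is Cdh5-CreERT2; Ctgffl/fl, in which a tamoxifen-inducible Cre is driven by the Cdh5 promoter of endothelial cells. The labels give no age, no tamoxifen schedule and no unligated liver, so every value is from a ligated animal. A slow spin had depleted hepatocytes, and a density gradient had removed red cells and dead cells. The sample titles name the 2 libraries the other way round from their genotypes and library names, so each is called by its genotype label. Each label has 1 library, so no difference has a replicate check and no test was possible. Every interval is at the 95% level and covers only counting error. Animal, surgery, preparation and genotype cannot be told apart.

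NK cells and ILC1 are lymphocytes without rearranged antigen receptors. Both use the transcription factor T-bet and the receptor NKp46, encoded by Ncr1, and both make interferon-gamma. Conventional NK cells circulate, depend on Eomes, kill through perforin and granzymes, and in the mouse carry Ly49 receptors (the Klra genes) that sense MHC class I. Liver ILC1 are mostly resident in the sinusoids, carry CD49a (Itga1), CXCR6 and TRAIL (Tnfsf10), and develop without Eomes. Transforming growth factor beta promotes ILC1 features in this lineage.

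Selected cells were shallow in comparison with the suspension as a whole. Their median depth was 5184.5 counts in the control-labelled library and 5572 in the knockout-labelled library, against 7972 and 9506 over all kept barcodes. Summed, they held 806216 and 413572 counts, and all levels below are CPM, the share of such a sum scaled to 1000000 counts. In a pair of values the control-labelled library comes first unless said otherwise. The files hold 10000 barcodes per library, and 2 barcode numbers occur in both.

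Markers that the rule did not use were checked for the NK and ILC1 label. Nkg7, a granule membrane protein of cytotoxic lymphocytes, was at 1111 CPM in the control-labelled library and 1267 CPM in the knockout-labelled library, against 25.7 and 24.1 CPM over all other kept barcodes. Klrd1 (CD94, the partner of NKG2 receptors) was at 739 and 754 CPM against 16.7 and 14.7 CPM. Il2rb, the shared beta chain of the interleukin-2 and interleukin-15 receptors, was at 2248 and 2684 CPM against 47.5 and 39.3 CPM. Tbx21, which encodes T-bet, was at 128 and 177 CPM against 3.01 and 3.46 CPM. This contrast sets the selected cells apart from the suspension as a whole. The markers were not compared here with T cells that also held NK transcripts. It therefore does not by itself separate NK cells and ILC1 from such T cells. The genes the rule used are given only as a description: Ncr1 stood at 706 and 928 CPM, Klrb1c at 643 and 825 CPM, and Klre1 at 535 and 793 CPM.

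The threshold on NK transcripts fell among few barcodes. The 3 genes of the rule summed to 3 to 44 counts per selected cell in the control-labelled library, with a median of 11, and to 5 to 31 in the knockout-labelled library, with a median of 15. Just outside, 9 and 2 barcodes met all other criteria with exactly 2 such counts, and 0 of them had a Gzma count. Just inside, 1 and 0 barcodes had exactly 3. Among barcodes past this threshold, the step that removed most was the limit on Cd3 transcripts, which left 178 of 313 and 94 of 286.

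Other cell types and states were covered by 13 marker lists. Of 14 T cell markers listed, 12 were in the files. Trgc1 and Trgc4, T cell receptor gamma constant genes given further below, were not on that list. T cell markers summed to 838 and 955 CPM, against 143 and 150 CPM over all other kept barcodes. Of the 12, 9 and 10 had a count in selected cells. Their sum was 655 and 574 CPM in selected cells with an Eomes count and 915 and 1164 CPM in those without. Cd8a, Cd8b1 and Cd6 were at 0 in the selected cells of the control-labelled library, as were Cd5 and Cd6 in the knockout-labelled library. Trbc2, a T cell receptor constant gene, was present at 392 and 363 CPM, in 88 and 36 cells, against 1064 and 1040 CPM in other T cells. Il13, Il5, Il17rb and Areg of ILC2, and Il22, Il23r, Il17a and Il17f of ILC3, were at 0 in both libraries. Mcpt8, Ms4a2, Fcer1a and Gata2 of basophils and mast cells were at 0 in both libraries. The ILC2 list summed to 84.3 and 65.3 CPM, against 14.8 and 7.92 CPM in the rest, so its sum was above that of the suspension. Its counts came from Gata3 and Il1rl1, with Hs3st1 also detected in the knockout-labelled library. The ILC3 list was at 67.0 and 65.3 CPM against 89.7 and 85.7 CPM, and the basophil and mast cell list at 6.20 and 12.1 CPM against 38.7 and 44.0 CPM. The proliferation list (Mki67 and Top2a) was at 1278 and 793 CPM, against 302 and 207 CPM.

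Transcripts of other lineages moved with the labels. Mesenchymal markers summed to 1402 CPM in the control-labelled library and 546 CPM in the knockout-labelled library. Few cells held most of them, since the 5 cells with the most gave 1001 of 1130 counts in the former and 1 cell gave 184 of 226 in the latter. Kupffer cell markers summed to 707 and 322 CPM, hepatocyte markers to 708 and 317 CPM, B cell markers to 511 and 290 CPM, and endothelial markers to 419 and 619 CPM. Monocyte and dendritic cell markers were at 2058 and 1949 CPM, neutrophil markers at 50.9 and 70.1 CPM, and erythroid and platelet markers at 165 and 79.8 CPM. Cells with 50 or more counts per 10000 of the Kupffer, endothelial, hepatocyte, mesenchymal and B cell lists and 9 myeloid genes numbered 12 and 3, and 9 and 2 cells lay between 40 and 60. Their part in the results below was not tested beyond leaving those cells out.

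NK cells and ILC1 made up a smaller share of the knockout-labelled library. They were 1.59% (1.33 to 1.89, exact Clopper-Pearson) of kept barcodes in the control-labelled library and 0.750% (0.581 to 0.953) in the knockout-labelled library, a log2 ratio of -1.09 (-1.54 to -0.64). Of kept barcodes with at least 3 counts of the NK genes, or at least 2 of the Cd3 or B cell genes, they were 11.5% of 1091 and 6.88% of 960. Barcodes with both Cd3 and NK lectin transcripts, here called T cells with NK lectins, went the other way, at 0.935% and 1.26% of kept barcodes (74 and 111 cells). Shares describe the suspension, not the liver. In an alternative added after the data were seen, barcodes with a Mki67 or Top2a count were left out of both the selected cells and the total. The shares were then 73 of 5843 (1.25%, 0.981 to 1.57) and 54 of 7519 (0.718%, 0.540 to 0.936), a log2 ratio of -0.80. With such cells left out of the selected cells alone, against the full total, the log2 ratio was -0.59.

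Eomes divided the selected cells into 34 positive and 92 zero cells in the control-labelled library and into 21 and 45 in the knockout-labelled library. Positive cells were 27% (19.5 to 35.6) and 31.8% (20.9 to 44.4) of the selected cells, a difference of 4.83 percentage points (-9.09 to 19.52) that includes 0. With each cell thinned to 2500 counts, the shares were 19.0% and 28.8%. B cells, here kept barcodes with at least 2 Cd79a and Ms4a1 counts, had to hold 0 counts of the NK and Cd3 genes. They also met the same Kupffer and endothelial limits. Barcodes mixing B cells with NK or T cells were thereby left out, so a low background is partly set by this choice. Among B cells, where Eomes is not expected, 0 of 268 and 0 of 266 had an Eomes count. The exact interval allows shares of up to 1.37% and 1.38%, at median depths of 4983.5 and 4232 counts. T cells did hold Eomes counts, in 12 of 74 and 5 of 111 T cells with NK lectins. Of other T cells, with at least 2 Cd3 counts and fewer than 3 of the NK genes, 38 of 201 and 25 of 218 did. An Eomes count thus does not set the selected cells apart from T cells. Among selected cells, positive cells held 1 to 12 Eomes counts in the control-labelled library and 1 to 10 in the knockout-labelled library. A zero cell has no Eomes count at its depth and may still express the gene. Median depth was 6014.5 and 5347 counts in positive cells and 4983 and 5657 in zero cells.

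Within single cells, Eomes went with a second set of markers that had no part in the rule. In the control-labelled library, 22 of 34 Eomes-positive cells had more counts of conventional NK markers (Itga2, S1pr5, Klra8 and Irf8) than of ILC1 markers (Itga1, Cxcr6, Tnfsf10, Cd200r1, Il7r and Inpp4b). In the knockout-labelled library, 18 of 21 did. The reverse held in 8 and 1 Eomes-positive cells. Among Eomes-zero cells, 82 of 92 and 40 of 45 had more ILC1 counts. The remaining zero cells included 6 and 4 with more conventional NK counts, so the zero class was not purely of ILC1 type by these genes. Both marker sets were chosen with earlier results of these data known, so this comparison is a description. It sets raw counts side by side, and the ILC1 set has more genes than the conventional NK set.

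**Figure D1:**
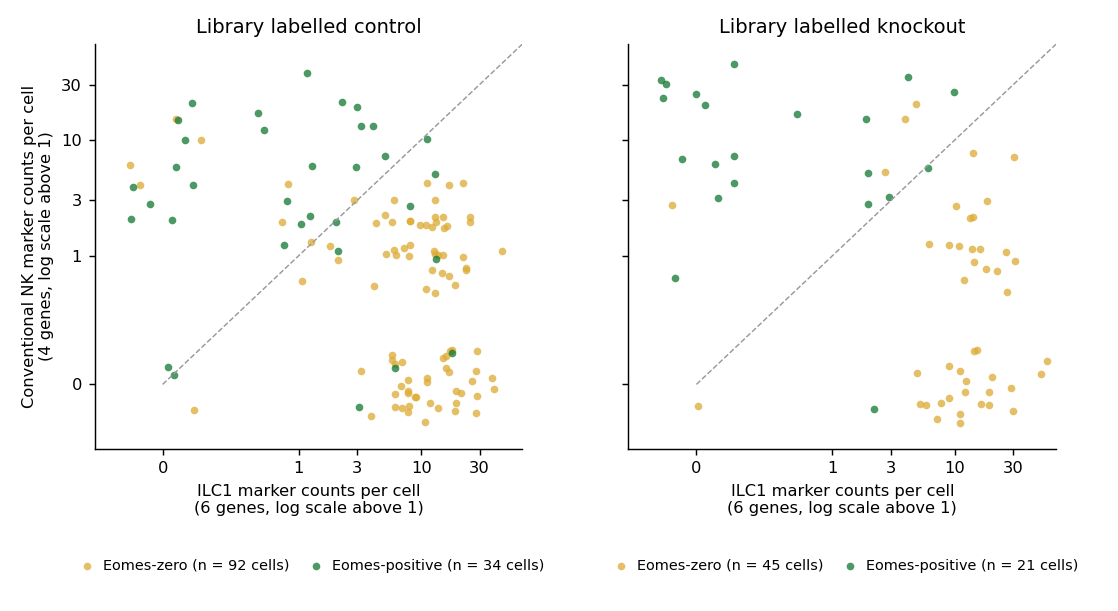
Each point is 1 selected cell, plotted by its summed counts of 6 ILC1 markers (x axis) and 4 conventional NK markers (y axis), both linear up to 1 and logarithmic above, with a small random offset; the dashed line marks equal counts. Eomes-positive cells lie above the line in 22 of 34 and 18 of 21 cells, and Eomes-zero cells below it in 82 of 92 and 40 of 45.

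Eomes-positive cells had higher levels of conventional NK genes in both libraries. Over the 4227 genes with at least 20 counts in each library, 201 (4.76%) were at least 1.5-fold higher in Eomes-positive cells in both libraries and 323 (7.64%) were lower in both. Taken singly, 12% were higher and 17.1% lower in the control-labelled library, and 20.4% and 21.1% in the knockout-labelled library. Of the 12 conventional NK genes tested, 8 were higher in both (Itga2, Itgam, Klra8, Klra4, Klra3, Klf2, Irf8 and Prf1) and 0 lower. The list's median log2 ratio was 1.37 in the control-labelled library and 1.59 in the knockout-labelled library, beside -0.01 and 0.01 over all genes tested. These lists were drawn up with earlier results of these data known and are descriptions.

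Tcf7, which encodes the factor TCF-1, was at 465 CPM in Eomes-positive and 28.1 CPM in Eomes-zero cells of the control-labelled library, and at 676 and 165 CPM in the knockout-labelled library. It was detected in 26 of 34 and 16 of 21 positive cells but in 12 of 92 and 15 of 45 zero cells. Irf8, a factor of NK cell maturation, stood at 380 against 112 CPM and at 540 against 180 CPM. Its log2 ratio, averaged over both libraries, was 1.67, and 0.78 when cells were classed by the Eomes counts left after thinning. Both were higher in the positive class of each library, and the zero class of the knockout-labelled library had more Tcf7 than that of the control-labelled library.

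Several migration genes followed the same order. Itga4, the alpha 4 integrin, was at 959 and 1646 CPM in Eomes-positive cells and 290 and 292 CPM in Eomes-zero cells. Emb (embigin) was at 380 and 458 CPM against 36.9 and 202 CPM, and the adhesion receptor gene Cd2 at 262 and 335 CPM against 52.7 and 105 CPM. Of the 16 chemokine receptor and trafficking genes tested, 6 were higher in Eomes-positive cells of both libraries (Cxcr4, Ccr2, S1pr4, Itga4, Itgam and Itga2) and 3 lower (Cxcr3, Cxcr6 and Itga1).

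Ly49 receptors were concentrated in the Eomes-positive class. Klra4 (Ly49D, an activating receptor) was at 591 CPM in Eomes-positive cells of the control-labelled library and at 984 CPM in those of the knockout-labelled library, and at 12.3 and 26.2 CPM in Eomes-zero cells. Klra8 (Ly49H, the activating receptor that binds a cytomegalovirus protein) was at 473 and 1441 CPM against 36.9 and 48.7 CPM. Neither was in every positive cell, since Klra8 was detected in 12 of 34 and 11 of 21 and Klra4 in 15 of 34 and 11 of 21. Klra7 was at 194 and 369 CPM against 54.4 and 15 CPM, and Klra3 at 224 and 109 CPM against 128 and 29.9 CPM. Klra9 was less divided, at 291 and 553 CPM against 211 and 344 CPM. With cells classed by the Eomes counts left after thinning, the Klra4 log2 ratio averaged over both libraries was 4.18 in place of 5.41. Of the 5 Ly49 genes tested, 4 were at least 1.5-fold higher in Eomes-positive cells of both libraries.

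The Ly49 genes are related copies in 1 cluster, and the authors' counting could have split or lost reads between copies, so single-gene levels are uncertain. Upstream of the start site likeness differed between pairs, and Klra4 and Klra8 are shown because they had the largest named Eomes-positive excess of the family. The 250 bases before each start site were read from RefSeq's GRCm38.p6 promoter table, on the minus strand (Klra4 at chr6:130067272-130067521, Klra8 at chr6:130129899-130130148). Capitals mark the longest run, of 27 bases, that both share without a mismatch.
Klra4: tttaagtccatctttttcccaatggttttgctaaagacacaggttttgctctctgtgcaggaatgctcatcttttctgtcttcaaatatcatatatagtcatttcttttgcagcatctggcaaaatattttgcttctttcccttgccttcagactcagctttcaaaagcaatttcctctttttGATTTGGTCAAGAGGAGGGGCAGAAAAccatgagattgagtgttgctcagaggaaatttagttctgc
Klra8: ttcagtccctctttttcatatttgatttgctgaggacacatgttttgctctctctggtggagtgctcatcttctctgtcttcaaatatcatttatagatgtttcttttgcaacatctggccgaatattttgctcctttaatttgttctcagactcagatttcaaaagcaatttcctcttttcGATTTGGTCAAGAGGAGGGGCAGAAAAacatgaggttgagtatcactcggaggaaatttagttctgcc
In a global alignment these windows were identical at 212 of 251 columns (84.5%). The windows of Klra3 and Klra9 were identical at 224 of 269 columns (83.3%), and each of these 2 shared 39.5% to 47.8% with those of Klra4 and Klra8. The window of Klra7 shared 44.3% to 50.4% with the other 4. Likeness of these windows is a description, and nothing about the control of these genes was measured.

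Genes of the ILC1 programme were higher in Eomes-zero cells. Of 21 tested, 14 were lower in Eomes-positive cells of both libraries and 1 (Ctla2a, a protease inhibitor gene) was higher. The list's median log2 ratio, Eomes-positive over Eomes-zero, was -1.64 in the control-labelled library and -1.94 in the knockout-labelled library. Cxcr6 had 21.1 and 0 CPM in Eomes-positive cells against 220 and 341 CPM in Eomes-zero cells. Tnfsf10, the death ligand TRAIL, had 4.22 and 20.5 CPM against 262 and 213 CPM. Inpp4b, a lipid phosphatase gene, had 114 and 34.2 CPM against 583 and 550 CPM. All 3 genes were lower in the positive class of each library, though Inpp4b was still detected in 11 of 34 and 3 of 21 positive cells.

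Cd7, a surface immunoglobulin family member, was present in most cells of both classes. It was at 819 and 1154 CPM in Eomes-positive cells and at 3264 and 3080 CPM in Eomes-zero cells. A Cd7 count was found in 31 of 34 and 17 of 21 positive cells and in 86 of 92 and 42 of 45 zero cells, so the classes differed in amount more than in detection. Itga1 was at 88.7 and 0 CPM against 414 and 281 CPM. It was also at 554 and 531 CPM over all other kept barcodes, so in zero cells it did not exceed the surrounding suspension. Cd200r1 and its neighbour Cd200r2, both of the CD200 receptor family, were at 16.9 and 0 CPM against 216 and 176 CPM, and at 12.7 and 0 CPM against 188 and 240 CPM.

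Granzyme B belonged to the Eomes-zero side. Gzmb was at 701 and 225 CPM in Eomes-positive cells and at 2195 and 2290 CPM in Eomes-zero cells. Prf1, which encodes perforin, had the opposite order, at 241 and 465 CPM against 130 and 183 CPM. Fasl, the ligand of the death receptor Fas, was at 67.6 and 143 CPM against 105 and 266 CPM. Of 14 cytotoxic effector genes tested, Prf1 was the 1 higher in Eomes-positive cells of both libraries, and Gzmb, Fasl and Tnfsf10 were the 3 lower. Perforin and granzyme B messages were thus highest in different classes.

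Other genes named by rule on the Eomes-zero side were Cd226, the activating receptor DNAM-1, at 616 and 853 CPM against 232 and 109 CPM in positive cells, and Fgl2, a fibrinogen-like secreted protein, at 385 and 659 CPM against 160 and 123 CPM. Rbpj, the nuclear effector of Notch, was at 314 and 277 CPM against 63.4 and 54.6 CPM. Gimap7, an immune GTPase gene, was at 420 and 359 CPM against 199 and 75.1 CPM, and Cysltr2, a leukotriene receptor gene, at 132 and 206 CPM against 50.7 and 54.6 CPM. Trgc4, a T cell receptor gamma constant gene, was at 378 and 468 CPM against 46.5 and 27.3 CPM.

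**Figure D2:**
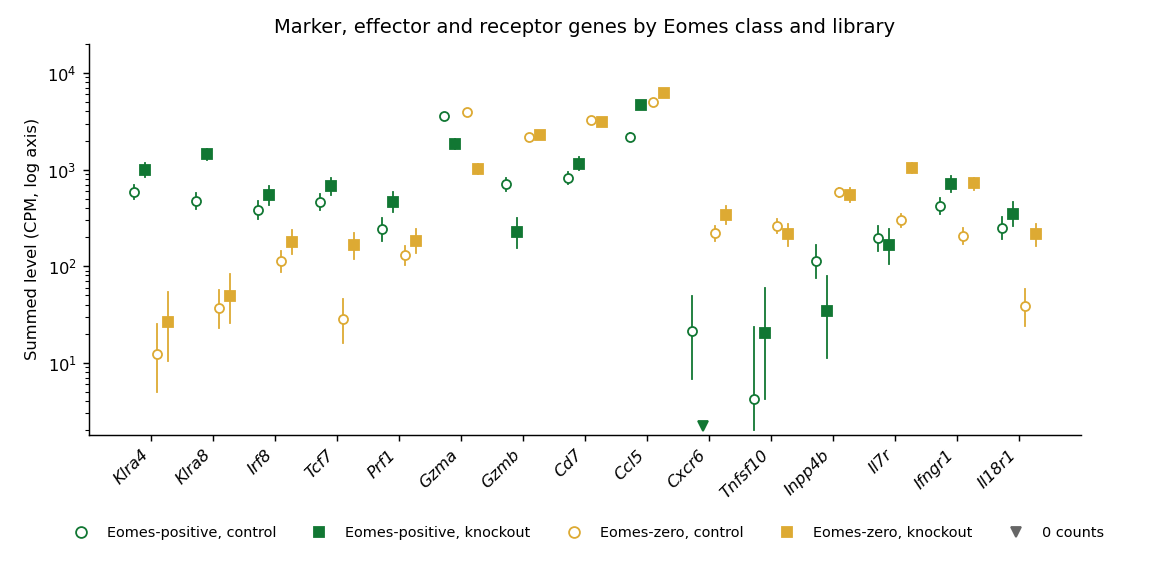
Summed level in CPM (log axis) of 15 genes in Eomes-positive and Eomes-zero cells of each library, with exact 95% Poisson intervals as bars and a triangle for 0 counts. Tcf7, Klra4 and Klra8 are higher in the Eomes-positive sums of both libraries and Gzmb, Cd7 and Cxcr6 lower, while Gzma in Eomes-zero cells is at 3992 CPM in the control-labelled library and 1010 CPM in the knockout-labelled library.

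Cell cycle genes leaned to Eomes-positive cells, with 7 of 15 higher in both libraries and 0 lower. At least 2 counts of Mki67 and Top2a together were present in 15 of 34 positive and 26 of 92 zero cells of the control-labelled library, and in 4 of 21 and 4 of 45 of the knockout-labelled library. After thinning to 2500 counts, the shares were 29.4% and 18.5% in the control-labelled library and 19.0% and 6.67% in the knockout-labelled library. The intervals of the positive and zero classes overlapped in each library, so the order of the classes was not resolved at this number of cells.

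The next lists were less divided than the conventional NK and ILC1 lists. Among 19 lineage transcription factors, Irf8, Tcf7, Bach2 and Klf2 were higher in Eomes-positive cells of both libraries and Ahr was lower. Of 16 cytokine receptors, Il18r1 and Il18rap, the 2 chains of the interleukin-18 receptor, were higher and 6 were lower (Il2rb, Il2ra, Il7r, Il21r, Tgfbr2 and Il27ra). Of 11 NKR-P1, NKG2 and other lectin receptors, 0 were higher and Klrb1a, Klrb1b and Klrc1 were lower. Of 14 activating and costimulatory receptors, Cd2 was higher and 4 were lower. The lectin list holds Klrb1c and Klre1, and the activating list Ncr1, which the rule used to select the cells. Syk, Fyn and Sh2d1a were the higher and Zap70 and Txk the lower of 15 adaptor genes. By summed level, the interleukin-18 receptor genes were thus higher with Eomes and Il7r higher without it. By detection the split was less clean. In the knockout-labelled library, Il18r1 was found in 12 of 21 positive and 24 of 45 zero cells, against 19 of 34 and 9 of 92 in the control-labelled library. Il7r was found in 8 of 34 and 6 of 21 positive cells.

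Over all genes tested, 4.76% were higher in Eomes-positive cells of both libraries and 7.64% were lower. The signalling and stress lists are to be read against these shares. Of 18 immediate early genes 3 were higher (Fosl2, Nr4a1 and Nr4a3) and Jun was lower, and of 7 heat shock genes Hsph1 and Hspd1 were higher. Of 6 inhibitory checkpoint genes 4 were lower (Cd96, Cd200r1, Klrc1 and Entpd1). Of 13 genes of the transforming growth factor beta response 5 were lower (Tgfbr2, Itga1, Tnfsf10, Cxcr6 and Inpp4b). All of these but Tgfbr2 were already counted in the ILC1 list, as was Cd200r1 of the checkpoint list. Of 4 interferon-stimulated genes Ifi208 was lower, and of 13 MHC class I genes H2-T23 was lower. Of 8 cytokines and chemokines made and of 11 glycolysis and hypoxia genes, 0 passed in either direction.

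**Figure D3:**
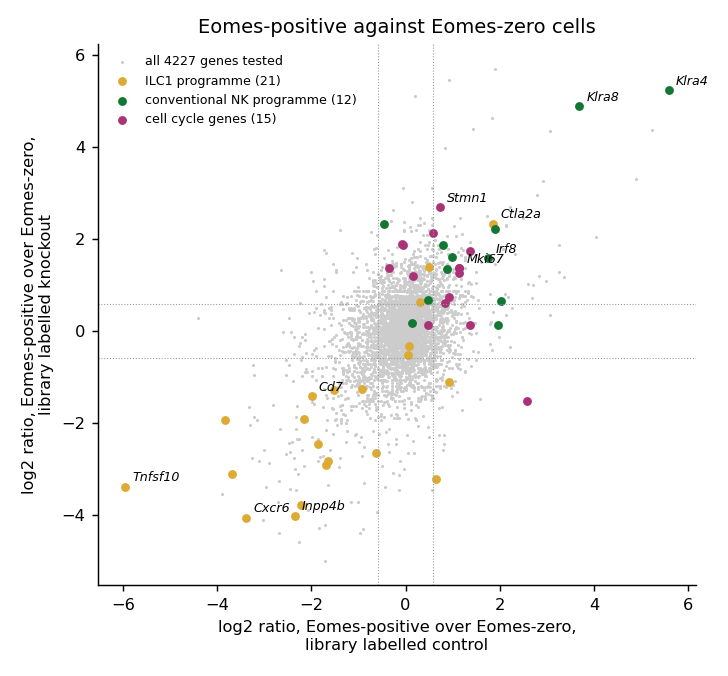
Log2 ratio of summed levels, Eomes-positive over Eomes-zero cells, in the control-labelled library (x axis) and the knockout-labelled library (y axis) for 4227 genes, with dotted lines at 1.5-fold, a 0 replaced by 3 counts and values beyond 7 drawn at 7. Conventional NK genes such as Klra4, Klra8 and Irf8 lie at the upper right and ILC1 genes such as Tnfsf10, Cxcr6 and Inpp4b at the lower left.

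Between the labels, the first gene to examine is Ccn2, the target of the deletion. NK cells and ILC1 are not endothelial, and Ccn2 was near the limit of detection in them. The control-labelled library had 20 Ccn2 counts (24.8 CPM) in 13 selected cells, with at most 4 in a cell. The knockout-labelled library had 13 counts (31.4 CPM), all in 1 cell that also held 184 counts of mesenchymal markers among its 15722 counts. In the control-labelled library, 12 of the 20 were in the 5 cells with the most mesenchymal counts. The log2 ratio was 0.34 (-0.79 to 1.42), and it was -1.48 with the top 5% of doublet scores left out. Over all other kept barcodes the level was 464 and 99.7 CPM. The Ccn2 counts of the selected cells are too few, and too concentrated in cells with mesenchymal transcripts, to check the labels. Cdh5, whose promoter drives the Cre, was at 18.6 and 16.9 CPM against 403 and 569 CPM in the rest.

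Among 7831 genes with at least 20 counts in all and 10 CPM in at least 1 library, 1185 (15.1%) were at least 1.5-fold higher in the knockout-labelled library and 1170 (14.9%) at least 1.5-fold lower, 30.1% in all. The median log2 ratio over these genes was 0.05. Within Eomes-positive cells the shares were 20% higher and 15% lower of 3948 genes, and within Eomes-zero cells 17.6% and 19.1% of 6680. Counts of list members below are to be read against 15.1% and 14.9%.

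Granzyme A was lower in the knockout-labelled library. Gzma, a serine protease of cytotoxic granules, was at 3885 CPM in the control-labelled library and 1308 CPM in the knockout-labelled library, a log2 ratio of -1.57 (-1.70 to -1.44). In Eomes-zero cells the levels were 3992 and 1010 CPM (log2 ratio -1.98, -2.17 to -1.80), and in Eomes-positive cells 3628 and 1851 CPM, a log2 ratio of -0.97. The knockout-labelled library was lower in both classes. A single cell gave 20.5% of the Gzma counts of the knockout-labelled library, against 5.17% for the largest contributor in the control-labelled library. The former was an Eomes-zero cell with 111 Gzma counts, so its part of the Eomes-zero sum was larger. The interval for Eomes-zero cells does not cover such concentration in 1 cell.

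Fewer cells carried the transcript. Gzma was detected in 64 of 92 Eomes-zero cells of the control-labelled library (69.6%, 59.1 to 78.7) and in 9 of 45 of the knockout-labelled library (20%, 9.58 to 34.6). With cells thinned to 2500 counts the shares were 65.2% and 20%. In Eomes-positive cells, before thinning, it was detected in 27 of 34 and 15 of 21. B cells, chosen without any NK or Cd3 gene count and taken as the background, had a Gzma count in 3 of 268 and 2 of 266. The median Eomes-zero cell had 10 Gzma counts in the control-labelled library and 0 in the knockout-labelled library, while the highest had 162 and 111. In the alternatives, the log2 ratio over all selected cells ranged from -1.81 to -1.49. T cells with NK lectins also had less Gzma, at 1766 and 499 CPM, and other T cells more, at 51.1 and 203 CPM.

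The other effectors did not move together. Gzmb was at 1756 and 1560 CPM (log2 ratio -0.17, -0.31 to -0.04), and was at 2195 and 2290 CPM in Eomes-zero cells but 701 and 225 CPM in Eomes-positive cells. Prf1 was at 162 and 283 CPM (log2 ratio 0.80, 0.43 to 1.17). Fasl was at 94.3 and 222 CPM (1.24, 0.78 to 1.70), was higher in both Eomes classes, and was also at 101 and 202 CPM in T cells with NK lectins. Gzmc, a granzyme of activated ILC1, had 22 and 0 counts, 59.1% of the former in 1 cell, and 5 and 0 counts without cells that had a Mki67 or Top2a count, too few for a ratio. Of 17 effector and granule genes measured, Prf1 and Fasl were at least 1.5-fold higher and Gzma and Gzmc lower, and the list's median log2 ratio was 0.01. Messages for perforin and Fas ligand were thus higher in the library where granzyme A was lower. Without cells that had a Mki67 or Top2a count, the log2 ratio of Prf1 was 0.54, under 1.5-fold.

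**Figure D4:**
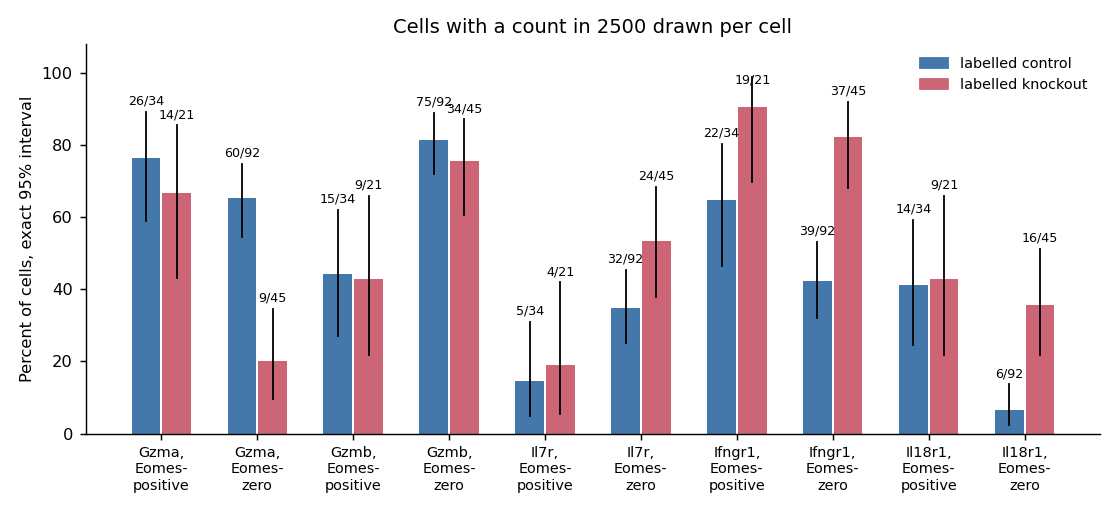
Percent of Eomes-positive and Eomes-zero cells with at least 1 count of each gene after every cell was thinned to 2500 counts, with exact 95% intervals and the number of cells above each bar. Gzma was found in 60 of 92 and 9 of 45 Eomes-zero cells, Ifngr1 in 39 of 92 and 37 of 45, and Il18r1 in 6 of 92 and 16 of 45.

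Chemokine and cytokine messages differed less. Ccl5, an attractant for T cells and monocytes, was at 4208 and 5694 CPM (log2 ratio 0.44), and Xcl1, an attractant for cross-presenting dendritic cells, at 941 and 1250 CPM (0.41). Ccl3 and Ccl4 were at 295 and 288 CPM and at 593 and 496 CPM. Ifng was at 90.5 and 96.7 CPM, but 54.8% of the counts of the control-labelled library came from 1 cell. Of 8 genes measured on this list, Ltb (lymphotoxin beta) at 53.3 and 96.7 CPM and Tgfb1 at 40.9 and 62.9 CPM passed 1.5-fold, both higher in the knockout-labelled library.

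Cytokine receptors were often higher in the knockout-labelled library. Of 17 measured, 9 were at least 1.5-fold higher in the knockout-labelled library and 0 lower, and the list's median log2 ratio was 0.61. Il7r, the interleukin-7 receptor alpha chain, was at 268 and 723 CPM (log2 ratio 1.43, 1.17 to 1.69). The difference in level lay in Eomes-zero cells, at 299 and 1029 CPM, while Eomes-positive cells had 194 and 164 CPM. Il7r was detected in 34.8% (25.1 to 45.4) and 53.3% (37.9 to 68.3) of thinned Eomes-zero cells, whose intervals overlap. The highest such cell of the knockout-labelled library held 49 Il7r counts before thinning. Ifngr1, a chain of the interferon-gamma receptor, was at 270 and 716 CPM (1.40, 1.15 to 1.66). It was detected in 42.4% (32.1 to 53.1) of thinned Eomes-zero cells of the control-labelled library and 82.2% (67.9 to 92.0) of those of the knockout-labelled library, and in 20.5% and 25.6% of thinned B cells.

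Il18r1 was at 100 and 261 CPM (log2 ratio 1.38, 0.95 to 1.81). Its level in Eomes-zero cells was 38.6 and 213 CPM, so that the gene separated the Eomes classes less in the knockout-labelled library. Il2ra, the inducible alpha chain of the interleukin-2 receptor, was at 53.3 and 148 CPM (1.47, 0.88 to 2.07), with 23% of the latter counts in 1 cell. Il12rb2, the signalling chain of the interleukin-12 receptor, was at 113 and 220 CPM (0.96, 0.53 to 1.40). The others past 1.5-fold were Il18rap, Tgfbr2, Il10ra and Il17ra, with log2 ratios of 0.61, 0.67, 0.71 and 1.01. Il2rb, the most abundant member, did not pass, at 0.26. The list's median was between 0.35 and 0.57 under 5 alternatives, which is less than 1.5-fold. T cells with NK lectins also had more Ifngr1, at 285 and 656 CPM, and Il7r there was at 635 and 823 CPM.

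Ly49 and related receptors also differed. Klra8 was at 165 and 542 CPM (log2 ratio 1.72, 1.40 to 2.04), from 15 and 12 cells, so that the knockout-labelled library had more counts per positive cell. Klra4 was at 182 and 365 CPM (1.0, 0.66 to 1.34) and Klra9 at 234 and 418 CPM (0.84, 0.53 to 1.14). Klra3 went the other way, at 156 and 58.0 CPM (-1.43, -2.12 to -0.79). Klra5 rested on 19 counts from 2 cells of the knockout-labelled library against 5 counts. Of 7 Ly49 genes measured, 4 were higher and 1 lower, with a median of 0.84 that was 0.46 without cells that had a Mki67 or Top2a count. With so few carrying cells, 1 cell gave 22.5% of Klra4 counts and 27.6% of Klra7 counts in the knockout-labelled library.

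Of 13 other lectin receptors, 3 were higher and 0 lower. Klrb1c and Klre1, which the rule used to select the cells, are on this list. Ncr1, also of the rule, is on the list of activating and costimulatory receptors. The counts and medians of both lists are thus not independent of the rule, and none of its genes is among those named as higher. Klrb1b, an inhibitory NKR-P1 receptor, was at 289 and 658 CPM (log2 ratio 1.19, 0.93 to 1.45). Klrc1 (NKG2A, an inhibitory receptor) was at 409 and 711 CPM (0.80, 0.56 to 1.03), and Klri2 at 404 and 631 CPM (0.64). Klrk1 (NKG2D), at 830 and 1032 CPM, did not pass 1.5-fold. Of 14 activating and costimulatory receptors 3 were higher (Crtam, Cd2 and Cd27) and 0 lower, and of 17 adaptors 4 were higher (Hcst, Cd247, Lat and Sh2d1a) and 0 lower. Hcst, the DAP10 adaptor of NKG2D, was at 122 and 254 CPM (1.06, 0.65 to 1.47). Of 9 inhibitory checkpoint genes, Klrc1 and Lilrb4a were higher and Pdcd1 (PD-1) lower, the last on 28 counts in 18 cells against 2 counts in 2 cells. Of 13 MHC class I genes, H2-T23, which encodes Qa-1, the molecule NKG2A binds, was the 1 higher, at 95.5 and 193 CPM, and 0 were lower.

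The ILC1 list had as many higher as lower members. Of 25 ILC1 genes measured, 4 were higher (Il7r, Ltb, Rora and Cd69) and 4 lower (Itga1, Gzmc, Ahr and Sdc4), and the list's median log2 ratio was 0.06. Of 16 conventional NK genes, 7 were higher (Klra8, Klra4, Klra9, S1pr5, Irf8, Prf1 and Ly6c2) and Klra3 lower, with a median of 0.56. Eomes itself, used to split the cells, was at 515 and 622 CPM within Eomes-positive cells. Ly6c2 was at 88.1 and 329 CPM, yet stood at 1169 and 835 CPM in T cells with NK lectins. S1pr5, an egress receptor, had only 6 and 15 counts. Of 18 trafficking genes 4 were higher (S1pr5, Selplg, Itga4 and Cd69) and S1pr1 and Itga1 lower. Of 14 genes of the transforming growth factor beta response, 5 were higher (Tgfbr2, Smad7, Skil, Cd69 and Tgif1) and Itga1 lower, with a median of 0.40.

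Among 23 lineage transcription factors 4 were higher (Rora, Irf8, Tcf7 and Stat4) and Ahr lower. Rora, a factor of innate lymphoid cells, was at 42.2 and 179 CPM (log2 ratio 2.08, 1.48 to 2.72), with 34 counts in 19 cells and 74 counts in 25 cells, 23% of the latter in 1 cell. Tcf7 was at 156 and 346 CPM (1.15, 0.79 to 1.5). In Eomes-zero cells it was at 28.1 and 165 CPM, and detected in 12 of 92 and 15 of 45 cells. Tbx21, at 128 and 177 CPM, did not pass 1.5-fold. Nfil3, Id2 and Tox, 3 factors of group 1 development, were at 40.9 and 36.3 CPM, 1242 and 1521 CPM, and 231 and 331 CPM, and did not pass either.

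Cell cycle genes were lower in the knockout-labelled library. A 1.5-fold decrease was met by 16 of 20 measured and an increase by 0, and the list's median was -0.77 on the log2 scale. Mki67 was at 605 and 355 CPM, from 37 of 126 and 7 of 66 cells, and 1 cell gave 40.1% of the latter counts. Cells with at least 2 counts of Mki67 and Top2a together were 41 of 126 (32.5%, 24.5 to 41.5) and 8 of 66 (12.1%, 5.38 to 22.5). With thinned cells the shares were 21.4% (14.6 to 29.6) and 10.6% (4.37 to 20.6), whose intervals overlap. B cells had the same order at lower levels, with 7.09% and 2.26% of thinned cells. Without cells above 10000 counts, an added alternative, the Mki67 log2 ratio was -4.93 in place of -0.77 and the list median was -3.05. In the knockout-labelled library, single cells above 10000 counts held 116, 105, 67 and 25 of the 328 Mki67 and Top2a counts. The -4.93 therefore rests on few remaining counts. Without cells that had a Mki67 or Top2a count, the median of the list was -0.58, and with thinned cells it was -1.53.

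Several glycolytic enzymes were lower as well. Gapdh was at 816 and 423 CPM (log2 ratio -0.95, -1.20 to -0.71), Pgk1 at 231 and 150 CPM, Pkm at 339 and 218 CPM, and Ldha at 293 and 189 CPM. These were the 4 lower of 15 glycolysis and hypoxia genes, with Slc2a1 and Pdk1 the 2 higher. The same 4 were lower over all other kept barcodes, where Gapdh was at 705 and 480 CPM and Ldha at 221 and 132 CPM. Of 13 interferon-stimulated genes, 6 were lower and 0 higher (Ifit3, Irf7, Oasl2, Ifi27l2a, Bst2 and Rtp4). All 6 rested on 57 or fewer counts each, and Oasl2, at 59.5 and 7.25 CPM, lay below its level in the other kept barcodes, 220 and 137 CPM.

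Immediate early genes were often higher. Of 19 measured, 9 were at least 1.5-fold higher in the knockout-labelled library and Dusp1 was lower, and the list's median log2 ratio was 0.57. Tnfaip3, the feedback inhibitor A20 of NF-kappaB signalling, was at 99.2 and 288 CPM (1.54, 1.11 to 1.96) and was higher in both Eomes classes. Nr4a3, an activation-induced nuclear receptor, was at 26.0 and 91.9 CPM (1.82, 1.01 to 2.66), from 9 and 13 cells. Fosb was at 104 and 227 CPM (1.13) and Jun at 134 and 210 CPM (0.65). Over all other kept barcodes Jun was at 567 and 1065 CPM, Fosb at 147 and 407 CPM, and Tnfaip3 at 38.4 and 67.1 CPM.

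Of 9 heat shock genes, Hspa1b and Dnajb1 were higher and Hspb1 lower. Hspa1b had 9 counts in 2 cells of the control-labelled library and 50 counts in 9 cells of the knockout-labelled library, 11.2 and 121 CPM. It was also higher in B cells, at 2.72 and 42.1 CPM.

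**Figure D5:**
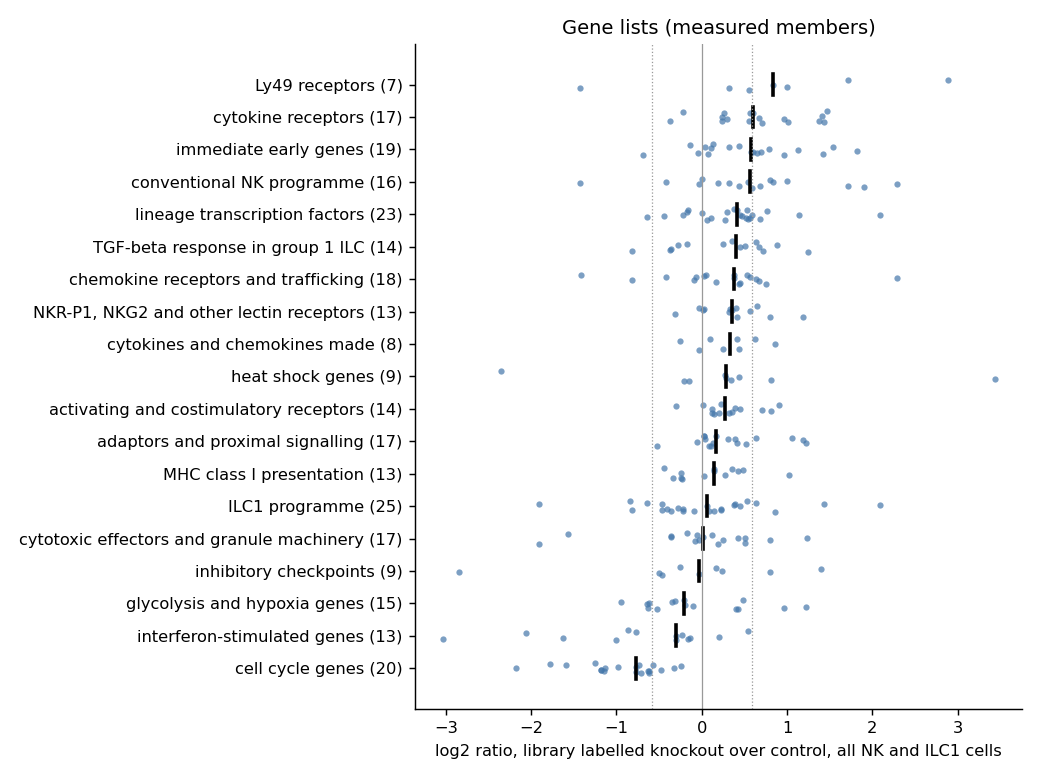
Each point is a measured member of 1 of 19 gene lists, plotted by its log2 ratio, knockout-labelled over control-labelled library, in all selected cells (values beyond 3.5 drawn at 3.5); black bars mark list medians, dotted lines 1.5-fold, and the number of measured members is in parentheses. Cytokine receptors have a median of 0.61 and cell cycle genes of -0.77. The lectin receptor list includes Klrb1c and Klre1, and the activating receptor list Ncr1, which the rule used to select the cells.

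Among genes that met the naming rule, the 12 highest ratios were those of Rora, Fbxl17, Runx2, Klra8, Mxd1, Setbp1, Zbtb2, Dtx1, Dusp5, Gprasp1, Tnfaip3 and Il2ra. Mxd1, a MYC antagonist, was at 58.3 and 191 CPM (log2 ratio 1.71), in 37 and 38 cells. Dusp5, a phosphatase that restrains ERK, was at 109 and 324 CPM (1.57), in 45 and 47 cells. Runx2, a RUNX family factor, was at 45.9 and 152 CPM (1.73), in 30 and 27 cells. All 3 were higher in both Eomes classes of the knockout-labelled library.

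The 12 lowest ratios included 5 genes that rest on single cells. Eln, Spock2, Prg4, Pnoc and Angptl7 had 93.3% to 100% of their counts in 1 cell of the control-labelled library each. Such values describe 1 cell and not the population, and Eln (elastin) and Prg4 (lubricin) encode matrix proteins. Cenpf, Hmmr and Tpx2, genes of mitosis, went with the cycle list, Cenpf at 120 and 26.6 CPM, and its log2 ratio of -2.18 was -0.39 without cells that had a Mki67 or Top2a count. Serpina3f, a protease inhibitor gene, was at 306 and 82.2 CPM (log2 ratio -1.90, -2.46 to -1.38) and was detected in 69 and 22 cells. Its level in Eomes-zero cells was 416 and 112 CPM. Trgc1 had 68 and 8 counts, Pmf1 72 and 11, and Fbl, of the ribosomal RNA methylation machinery, 96 and 15.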

How the data were processed

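Values as deposited are unnormalized whole counts for each gene in each barcode of 2 libraries made with the BD Rhapsody whole transcriptome assay, per the labels' protocols. Per the submitters' processing notes, the genome was GRCm39. For the aligner, counter, collapse of molecular identifiers and cell calling the entry is "not given in the sources used here", so counts may not be independent molecules. No reference of that build was used; upstream sequences come from RefSeq GRCm38.p6.

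Groups follow the genotype labels. Selected cells, 19 programme lists and 13 lists of other cell types were chosen with earlier results of these data known; some of their genes are not reported here and were left out of the lists. Counts were summed over cells, with exact Poisson, conditional and Clopper-Pearson intervals (SciPy 1.17.1). A count of 0 was set to 3 counts for ratios. Named genes are the markers, up to 4 largest differences per list, and the 12 highest and lowest ratios of each contrast with at least 50 CPM in 1 sum and 60 counts, without other lineages' genes and genes lower than in the rest of the library; examples are printed. Thinning drew 2500 counts per cell. Scrublet (Scanpy 1.11.5) scored doublets, but its own threshold marked 0.0126% and 0.0114% of barcodes and had not worked, and all cells were kept, the top 5% being left out as an alternative. Scaling alternatives used edgeR 4.0.16 (TMM) and medians of ratios. Code was tested on simulated counts.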

Additional observations from a re-analysis of the deposited data

Results flagged for a closer look

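Each of the following 6 genes moved at least 1.5-fold one way in one pair of sums and at least 1.5-fold the other way in the other, with counting intervals that exclude equality on both sides. With 1 library per label none of these differences was tested. The number of genes screened is not given here, so these 6 cannot be set against the number that counting error alone would yield. Except for Ifng, the part of single cells in these values is not given either.

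Cd247, the zeta signalling chain, had a log2 ratio of 1.57, Eomes-positive over Eomes-zero, in the control-labelled library and of -1.49 in the knockout-labelled library. For 5 genes the ratio of the knockout-labelled over the control-labelled library turned between the Eomes classes. Ifng had a log2 ratio of -1.31 in Eomes-positive cells and 1.26 in Eomes-zero cells, with 54.8% of its counts in the control-labelled library from 1 cell. Ccr2 had -0.65 and 0.98, Klra7 had 0.92 and -1.86, and Zeb2, a factor of late NK maturation, had 1.39 and -1.41. Socs2, a feedback inhibitor of cytokine signalling, had 0 counts in Eomes-positive cells of the knockout-labelled library, which gives -2.63 with the 0 set to 3 counts, and 1.24 in Eomes-zero cells.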

How the results depend on the processing

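No paired analysis was possible because each label has 1 library. Leaving out a replicate was not possible either, for the same reason. The log2 ratio of the NK and ILC1 share was -1.09 and moved to -0.59 with cells that had a Mki67 or Top2a count left out of the selected cells alone. With such barcodes left out of the total too it was -0.80, and -0.84 with barcodes above 10000 counts left out of both. The 1185 genes at least 1.5-fold higher in the knockout-labelled library became 690 with a minimum of 50 CPM, 4874 with no minimum and 375 at 2-fold, and the 1170 lower became 459, 3070 and 560. The lower count was 692 with thinned cells and 737 without cells that had a Mki67 or Top2a count. The 201 genes higher in Eomes-positive cells of both libraries became 81 with thinned cells and 65 at 2-fold, and the 323 lower became 115 and 133. Thinned sums have fewer genes past 20 counts. The difference in Eomes-positive share stayed between 2.97 and 9.74 percentage points.

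For 59 named genes and list medians, 803 values were computed under the alternatives. Not all of these could move, since a change of the minimum level leaves the ratio of a single gene as it was. TMM and median-of-ratios scaling shifted every log2 ratio between the libraries by only -0.0634 and -0.0390. Such values are included in the counts that follow. Of the 497 values for the 37 past 1.5-fold, 0 changed direction and 11 fell under 1.5-fold. Of these 11, 5 belonged to the median of cytokine receptors (0.35 to 0.57), and 5 others came from leaving out cells with a Mki67 or Top2a count: Prf1 (0.54), Gzmc (-0.39, a value set by replacing 0 by 3 counts against 5), Cenpf (-0.39), and the medians of Ly49 receptors (0.46) and cell cycle genes (-0.58). The other was Mki67 (-0.50) with stricter limits on Kupffer and endothelial markers. Leaving out cells with other lineages' genes, cells above 10000 counts, and cells with a Mki67 or Top2a count, from the selected cells or also from the total, was chosen after seeing the data.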
